A study of Mus musculus with 15 samples.

Results

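T cell recipients are described here across all expressed genes, neonatal hearts against hearts labelled adult. They were chosen by their labels: 4 libraries of neonatal hearts (numbers 1, 2, 4 and 5) and 4 of hearts labelled adult (numbers 1 to 4), all given adult T cells, which is 8 of the 15 libraries of the series. Another 7 libraries, 4 neonatal and 3 adult-labelled hearts without T cells, were left out of the comparison and appear only in its last paragraphs. Each library held polyadenylated RNA of the left ventricle of a C57BL/6 mouse with an experimental myocardial infarction, and the labels name no transgene or deletion. The shared protocol gives a time of 36 h after infarction and mentions only neonatal hearts. Its wording allows this to be the time of transfer or of collection. Ages in days, the dose and preparation of the T cells, the size of the infarct and sequencing batches are not given in the labels. Nothing there says whether a library came from 1 animal or from a pool, so p-values measure the spread between these libraries, which may be technical.

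Total counts ran from 21871617 to 31897034 per library, and 15477 genes were abundant enough to be tested. Levels of genes are given in CPM, counts relative to the library total multiplied by the scaling factor of that library (TMM), in the order neonatal recipients 1, 2, 4 and 5, then adult-labelled recipients 1 to 4. Differences are log2 fold changes, neonatal over adult-labelled, with standard errors (SE) and p-values of the quasi-likelihood test of edgeR, adjusted over all genes tested. A gene is said to be higher, or to have passed the test, at an adjusted p below 0.05. Heart muscle transcripts were among the most abundant in every library: Myh6, the main myosin heavy chain of the mouse ventricle, stood at 7198, 10330, 12320 and 11490 CPM against 15780, 16100, 15570 and 17730 CPM.

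The age label was checked against genes known to fall or rise as the mouse ventricle matures. H19, an imprinted RNA of fetal and newborn tissue that is nearly silent later, stood at 782 to 918 CPM in the adult-labelled libraries. Igf2, a fetal growth factor with the same course, stood at 710.1 to 904 CPM there, and Tnni1, the slow skeletal troponin I of the fetal heart, at 1166 to 1350 CPM. Mki67, a marker of dividing cells, reached 79.3 to 99.8 CPM. Scn4b, a sodium channel subunit of the grown heart, stood at 0.225 to 0.279 CPM, from 5 to 6 counts per library, and Cfd, the adipsin gene of grown fat and heart tissue, had no count in any of the 8 libraries. These levels differ from those generally known for a grown mouse ventricle, but no library of known age was compared. Scn4b and Cfd were chosen for this check after their values were seen. Mature isoforms were abundant in the same libraries, Myh6 at 15570 to 17730 CPM and Tnni3 at 3460 to 4384 CPM. The group is therefore called adult-labelled throughout, and no other age is given to it here.

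The mouse heart regrows lost muscle only in a short period after birth. In that period heart muscle cells stop dividing, change from sugar to fatty acids and oxidative phosphorylation as their main fuel, and exchange fetal for mature isoforms of contractile and metabolic proteins. After an infarct, monocytes and macrophages clear dead muscle and direct the repair, and T cells can change both through cytokines such as interferon gamma. The comparison asks how infarcted ventricles of both ages differ when both have received adult T cells.

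The recipients of both ages differed in a large part of their transcripts. Of 15477 genes, 8042 (52%) passed the test, 4150 (26.8%) higher in neonatal and 3892 (25.1%) higher in adult-labelled recipients. At least 2-fold differences that passed the test were found for 1571 genes (10.2%), of which 935 (6.04%) were higher in neonatal and 636 (4.11%) higher in adult-labelled recipients. For 7304 genes (47.2%) no library of one age reached the range of the other. Of the variance, 67% lay on the first principal component, which separated the ages, and the median SE of a log2 fold change was 0.106. These shares are the background for every list below.

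The direction of small differences depended on scaling and on transcript length. With the scaling used, 51.6% of the genes that passed were higher in neonatal recipients. With libraries divided by their totals alone this was 75.4%, with a median of all genes of 0.223 on the log2 scale in place of 0.0171, and with the trend over transcript length removed it was 40.7%. Across 14672 genes, Spearman's rho of the log2 fold change with transcript length was 0.281, which is a description over genes and not over samples. In the 25% of genes with the shortest transcripts (up to 2112 nt) the median log2 fold change was -0.177, and in the 25% with the longest (from 4749 nt) it was 0.219. No gene that passed both with the main settings and with an alternative had the opposite sign there.

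**Figure D1:**
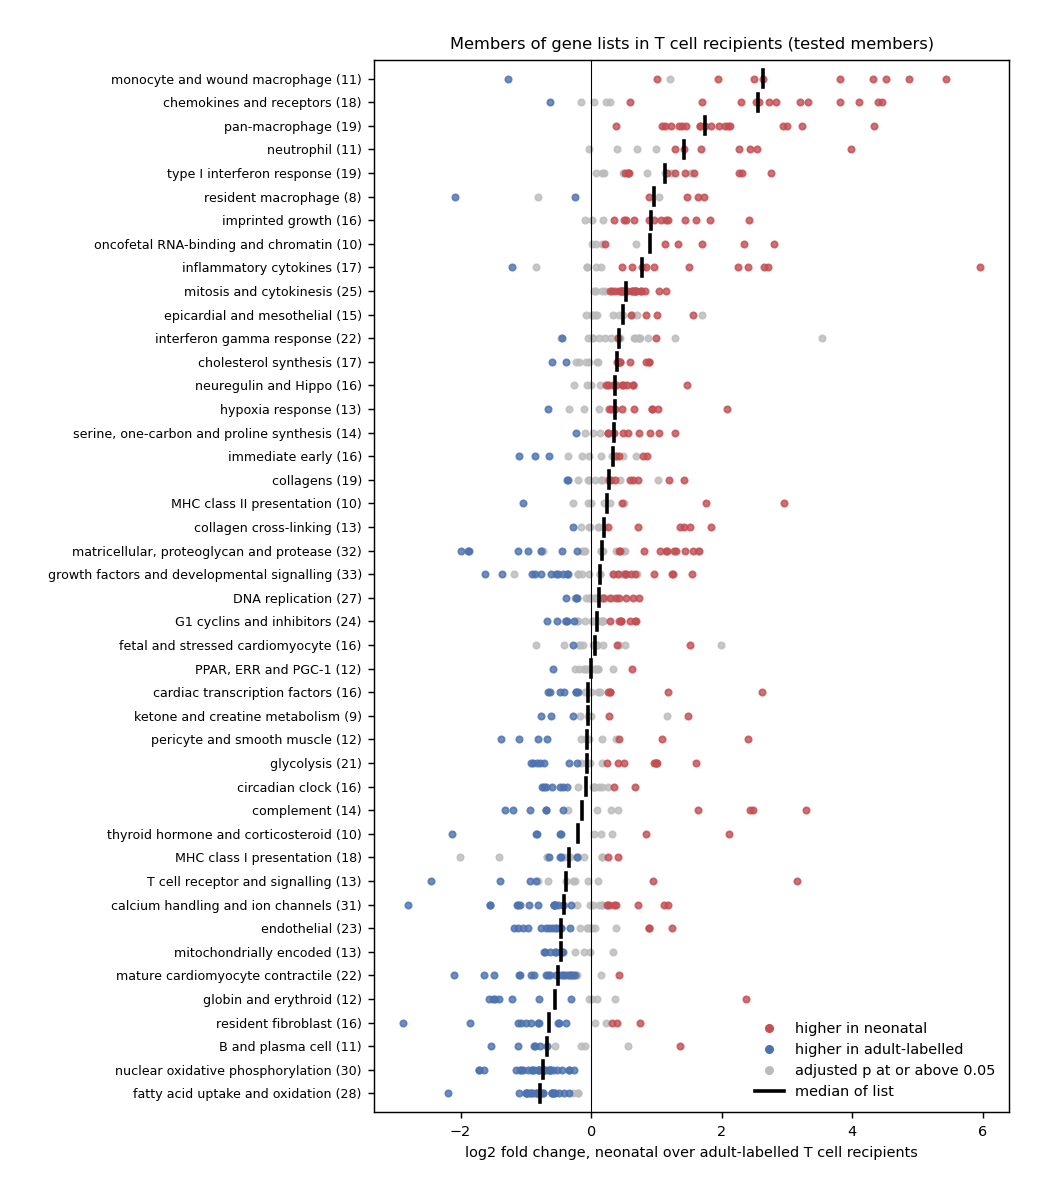
Log2 fold change (horizontal axis, neonatal over adult-labelled recipients) of each tested member of the lists with at least 8 tested members, with the number tested in brackets and the median as a black bar; colour marks genes with an adjusted p below 0.05. Macrophage, chemokine and imprinted growth genes lie to the right with medians of 2.63, 2.55 and 0.92 for the monocyte, chemokine and imprinted lists, while fatty acid oxidation and oxidative phosphorylation lie to the left with medians of -0.78 and -0.74. The rightmost point is Il6, whose fitted value rests on 1 count in the adult-labelled libraries.

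Transcripts of macrophages were higher in neonatal recipients, and among the gene lists used here theirs held the most differences of at least 2-fold. All 19 tested genes of a list of markers shared by macrophages passed the test in that direction, 18 of them by at least 2-fold, with a median log2 fold change of 1.75. By comparison, 26.8% of all genes passed in that direction. In bulk tissue fewer cells of a type and less RNA per cell cannot be told apart. Cd68, a lysosomal protein of macrophages, stood at 76.5, 48.9, 59.5 and 68.4 CPM against 9.43, 5.95, 9.28 and 8.53 CPM, a log2 fold change of 2.93 ± 0.17 (adjusted p = 1.49e-07). Mpeg1, which encodes a pore-forming protein of phagocytes, stood at 212, 161, 152 and 157 CPM against 15.1, 6.46, 17.1 and 13.5 CPM. For both genes every neonatal library lay far above every adult-labelled one, and adult-labelled recipient 2 was the lowest.

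Csf1r, the receptor for the growth factor on which macrophages depend, was 2.33-fold higher, at 61.5 to 80.7 CPM against 25.7 to 34.9 CPM. Its ligand gene Csf1 was higher as well, at 30.3 to 56 CPM against 19.4 to 23.5 CPM (adjusted p = 0.00281). Spi1, the transcription factor that directs the myeloid lineage, reached 14.4 to 20.8 CPM against 5.39 to 6.78 CPM. The 3 chains of the complement starter C1q, which heart macrophages make, were higher too, C1qb by 3.36-fold. Fcgr1, the high-affinity receptor for antibodies, differed by 9.35-fold. Cx3cr1, a receptor of resident and patrolling cells, differed least: its log2 fold change was 0.38 ± 0.14 (adjusted p = 0.038), and this call was lost without any 1 of 6 libraries, with adjusted p-values of 0.0621 to 0.125.

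Genes of the wound-type macrophage were among those with the largest fold changes that passed without overlap and averaged 5 CPM or more in the higher group. Spp1, which encodes the secreted adhesion protein osteopontin, stood at 918, 573, 1039 and 309 CPM against 40.4, 1.25, 12.1 and 11.8 CPM, with a log2 fold change of 5.44 ± 1.0 (adjusted p = 0.0044). Gpnmb, a membrane protein of phagocytes that clear debris, stood at 232, 156, 176 and 124 CPM against 21.5, 0.79, 4.47 and 7.78 CPM. Lgals3, the galactose-binding protein galectin-3, stood at 237, 130.2, 190.4 and 142 CPM against 14.9, 3.21, 8.45 and 8.04 CPM. The groups did not overlap for any of the 3. Within the adult-labelled group recipient 1 was the highest and recipient 2 the lowest for each. Without adult-labelled recipient 1 the log2 fold change was 6.38 for Spp1 and 5.26 for Gpnmb.

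Arg1, the arginine-degrading enzyme of repair macrophages, stood at 33.9, 19.5, 40.4 and 6.64 CPM against 0.956, 0.372, 2.04 and 0.225 CPM (log2 fold change 4.86 ± 0.85). Trem2, a lipid receptor of phagocytes, stood at 25.5 to 41 CPM against 2.42 to 7.42 CPM, and Il1rn, the natural blocker of interleukin-1, at 3.56 to 35.1 CPM against 0.232 to 1.46 CPM. Slfn4, an interferon-induced gene of myeloid cells, was at 2.54, 2.85, 19.4 and 4.41 CPM in neonatal recipients, with recipient 4 far above the others, and at 0.0751 to 0.465 CPM in the adult-labelled group. Without neonatal recipient 4 the log2 fold change of Slfn4 was 3.84 and that of Il1rn 3.74, and without adult-labelled recipient 3 that of Arg1 was 5.62, all 3 still past the test. With all 8 libraries limma voom did not call Slfn4 (adjusted p = 0.0504) or Il1rn (adjusted p = 0.0663). Without adult-labelled recipient 1 Il1rn had 5.21, and without adult-labelled recipient 2 Slfn4 had 5.58. Other genes much higher in neonatal recipients were Cd300lf, Clec4d and Cd180, surface receptors of myeloid cells, Adam8, a protease of leukocytes, Msr1, a scavenger receptor, Hk3, the hexokinase of myeloid cells, and Plek, a protein kinase C substrate of blood cells. Their log2 fold changes ran from 3.64 for Plek to 4.24 for Cd300lf, and no library of one group reached the other.

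Not all myeloid genes followed this direction. Ly6c2, which marks classical monocytes, was higher in adult-labelled recipients, at 4.43, 4.88, 6.29 and 4.58 CPM against 11.9, 11.3, 14 and 11.3 CPM (log2 fold change -1.27 ± 0.14, adjusted p = 2.91e-06). Ccr2, the receptor through which these monocytes leave the marrow, went the other way, at 10.6, 9.54, 9.35 and 11 CPM against 1.09, 0.836, 3.79 and 1.5 CPM, and its log2 fold change was 3.11 without adult-labelled recipient 3. Nos2, the inducible nitric oxide synthase, stood at 5.96, 8.54, 9.89 and 9.08 CPM against 21.5, 20.8, 20 and 15.3 CPM, again higher in adult-labelled recipients. Among 8 tested genes of resident heart macrophages 4 were higher in neonatal and 2 in adult-labelled recipients: F13a1, a clotting factor subunit, stood at 20.6 to 40.9 CPM against 5.37 to 12.4 CPM, and Cbr2, a carbonyl reductase, at 0.621 to 1.41 CPM against 2.03 to 6.04 CPM. Lyve1, a hyaluronan receptor of resident macrophages, did not pass the test at 5.05 to 9 CPM against 1.17 to 6.27 CPM, with overlapping groups, but passed without adult-labelled recipient 2 (1.51, adjusted p = 0.00464).

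**Figure D2:**
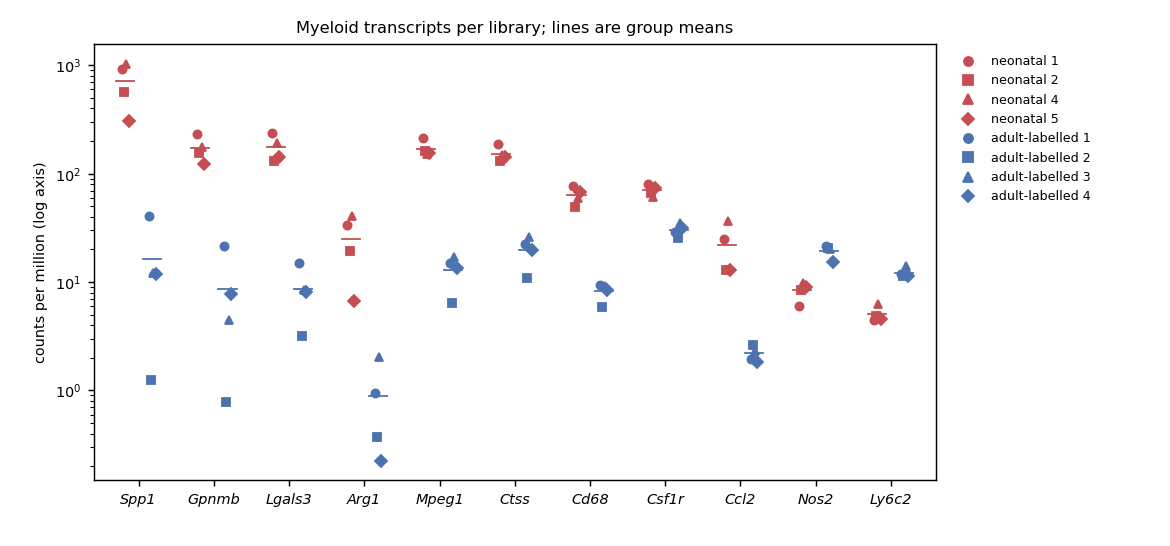
CPM (log axis) of 11 myeloid genes in each of the 8 recipient libraries, with lines at group means and a marker shape for each library. The neonatal points of Spp1 (309 to 1039 CPM) lie above all adult-labelled points (1.25 to 40.4 CPM), whereas Nos2 and Ly6c2 are arranged the other way.

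Chemokine genes, whose products draw leukocytes into tissue, were mostly higher in neonatal recipients. Of 18 tested genes 13 were higher there and 1 in adult-labelled recipients, with a median log2 fold change of 2.55. Ccl2, the main ligand of Ccr2, stood at 25.1, 12.8, 36.7 and 12.9 CPM against 1.96, 2.65, 2.33 and 1.84 CPM (log2 fold change 3.32 ± 0.44). Ccl6 and Ccl9, which myeloid cells make, were at 21.5 to 45.7 CPM against 2.52 to 5.68 CPM and 19.4 to 39.3 CPM against 2.56 to 5.1 CPM. Cxcl12, which stromal and vascular cells make and which holds progenitors in place, was the exception at 71.7 to 91.1 CPM against 94.2 to 155 CPM and was higher in adult-labelled recipients. The receptor gene Ccr1 was 5.96-fold higher in neonatal recipients. Macrophage markers rose with these genes, and their part in the chemokine levels was not tested.

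Among 17 tested inflammatory cytokine genes 11 were higher in neonatal and 1, Nos2, in adult-labelled recipients. Tnf, a central inflammatory cytokine, stood at 0.826, 0.909, 2.86 and 1.16 CPM against 0.137, 0.139, 0.291 and 0.451 CPM, and neonatal recipient 4 was far above the rest. Il1b reached 1.07 to 7.95 CPM against 0.186 to 1.07 CPM. Its log2 fold change was 2.7 ± 0.73, and 2.03 without neonatal recipient 4, and the call was lost without adult-labelled recipient 4 (adjusted p = 0.0625). Il6, which drives the acute response, had 12.2 to 41 counts per neonatal library and 0, 0, 0 and 1 counts in the adult-labelled ones, so no fold change is given. Nlrp3, the inflammasome sensor, stood at 1.11 to 2.57 CPM against 0.225 to 0.534 CPM, and Osm, which acts on heart muscle cells and fibroblasts, at 0.514 to 2.32 CPM against 0.186 to 0.41 CPM. Tgfb1 did not pass the test at 45.2 to 52.6 CPM against 48 to 53.5 CPM (log2 fold change -0.06 ± 0.07), with overlapping libraries, while Tgfb2 was higher in neonatal recipients at 27.3 to 38.6 CPM against 17.4 to 24.3 CPM.

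Of 11 tested neutrophil genes 7 were higher in neonatal recipients and none in adult-labelled ones. Csf3r, the receptor for the neutrophil growth factor, stood at 15.4, 11.5, 15.6 and 14.1 CPM against 1.55, 2.18, 3.4 and 2.59 CPM, and S100a8, a calcium-binding alarm protein, at 11.3, 6.06, 11.6 and 5.48 CPM against 2.23, 2.23, 4.66 and 3.76 CPM. Ly6g, which defines mouse neutrophils, was at or under 0.0971 CPM in all 8 libraries, below the floor of 3 counts (0.09405 to 0.1372 CPM), so no level can be read from it.

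Complement genes went both ways. The receptors C3ar1 and C5ar1, which myeloid cells carry, and Cfp, the stabiliser of the alternative pathway, were higher in neonatal recipients, C3ar1 at 44.3 to 61.7 CPM against 3.35 to 6.54 CPM. C1s1, a protease of the classical pathway, stood at 5.46 to 6 CPM against 11.7 to 16.5 CPM and Serping1, its inhibitor, at 29.9 to 36.8 CPM against 65.4 to 85.8 CPM, both higher in adult-labelled recipients. Cd55 and Cd59a, which shield cells from complement, were also higher there. In all, 4 of 14 tested genes were higher in neonatal and 6 in adult-labelled recipients, against 26.8% and 25.1% of all genes. C3 itself did not pass the test at 29.3 to 58.6 CPM against 20.3 to 85.5 CPM.

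Interferon genes were uneven among the neonatal recipients. Type I interferon induces a broad antiviral set, and 11 of 19 tested genes were higher in neonatal recipients, with a median log2 fold change of 1.13. The count was 7 without adult-labelled recipient 1. Oas2, which senses double-stranded RNA, stood at 2.95, 4.39, 7.08 and 6.08 CPM against 0.865, 0.79, 1.17 and 1.2 CPM (log2 fold change 2.31 ± 0.28, adjusted p = 8.42e-06), and Oasl2 at 14.4, 15.6, 23.3 and 29 CPM against 6.65, 6.55, 9.32 and 11.4 CPM. In both, neonatal recipients 4 and 5 were the highest of all libraries. Irf7, which amplifies the response, followed the same order at 10.7, 12.2, 30.5 and 35 CPM against 6.83, 6.83, 13.8 and 10 CPM but did not pass the test (adjusted p = 0.0852) with all libraries, and passed without neonatal recipient 1 (adjusted p = 0.0425).

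Interferon gamma is made by activated T and natural killer cells, and its targets varied widely among the neonatal recipients. Of 22 tested genes 2 were higher in neonatal recipients, among them Irf8, and 1 in adult-labelled ones, the receptor chain Ifngr2. Without neonatal recipient 1 or adult-labelled recipient 3 the count was 4 higher in neonatal recipients. Ifng itself had 0, 1, 15 and 7 counts in neonatal and 0, 3, 0 and 0 counts in adult-labelled recipients. Gbp2, a guanylate-binding protein induced by it, stood at 7.26, 7.85, 46.1 and 17.8 CPM against 10.9, 11.9, 17.1 and 9.99 CPM. Cxcl10, a chemokine that draws T cells, stood at 0.767, 1.06, 16 and 3.56 CPM against 0, 0.372, 1.12 and 0.338 CPM (log2 fold change 3.54 ± 1.40, adjusted p = 0.0764). Without neonatal recipient 4 the log2 fold change of Cxcl10 was 1.95. Irgm1, a GTPase of the same response, stood at 20.6, 19.9, 40.1 and 34.3 CPM against 13.8, 14, 25 and 16.9 CPM, and passed only without adult-labelled recipient 3 (adjusted p = 0.0322), among the fits that leave out 1 library. Neonatal recipient 4 was highest for all 3 and recipient 5 next among the neonatal libraries, while recipients 1 and 2 lay within or near the adult-labelled range.

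Genes of MHC class I presentation, which shows peptides to CD8 T cells, were set apart by 1 library. Adult-labelled recipient 3 was far above the others: H2-K1 stood at 58.2, 59.5, 69.1 and 71.6 CPM against 46.8, 47.1, 261 and 59.1 CPM, and H2-D1 at 114, 112, 129.5 and 119 CPM against 103, 96.5, 292 and 114 CPM. B2m, the shared light chain, stood at 190, 157, 188 and 212 CPM against 116, 120.4, 426 and 142 CPM, and H2-Q6 at 1.83, 1.91, 2.94 and 1.97 CPM against 2.28, 1.95, 28.2 and 2.71 CPM. None of the 4 passed the test between the ages. Without that library B2m and H2-K1 passed, higher in neonatal recipients, with log2 fold changes of 0.56 (adjusted p = 0.000613) and 0.33 (adjusted p = 0.0177) in place of -0.11 and -0.68. H2-D1 then had 0.18 (adjusted p = 0.105) in place of -0.35. Of the 18 tested genes 2 were higher in neonatal and 4 in adult-labelled recipients, no larger shares than the 26.8% and 25.1% of all genes. Among the latter were the proteasome genes Psmb10 at 48.7 to 66 CPM against 83.8 to 99.5 CPM and Psme1 at 96.3 to 112 CPM against 136 to 150 CPM.

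MHC class II genes, which show peptides to CD4 T cells, gave no direction. Cd74, the invariant chain, stood at 23.7, 12.1, 20.9 and 19 CPM against 18.6, 13.1, 32.2 and 28.5 CPM and H2-Ab1 at 9.47, 5.79, 7.91 and 8.14 CPM against 5.1, 3.35, 10.1 and 8.75 CPM, with overlapping groups and adjusted p-values of 0.531 and 0.635. Summed over the class II genes, the level was 45.8 ± 10.1 CPM (SD, n = 4) in neonatal and 41.3 ± 15.8 CPM (SD, n = 4) in adult-labelled recipients, relative to total counts, with an exact two-sided permutation p of 0.686. The sum was lowest in adult-labelled recipient 2, and the difference of 4.46 CPM changed sign without that library. Ctss, the protease that trims the invariant chain and is abundant in macrophages, stood at 189, 131, 147 and 143 CPM against 22.5, 11, 25.9 and 19.6 CPM, with no overlap.

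**Figure D3:**
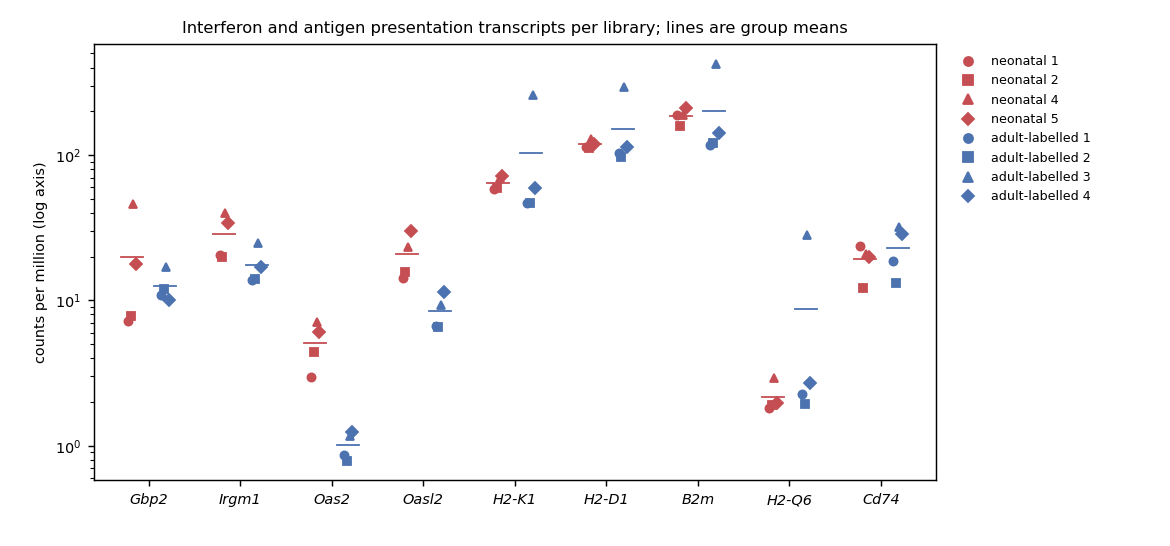
CPM (log axis) of 9 interferon and antigen presentation genes in each of the 8 recipient libraries, with lines at group means. Neonatal recipient 4 leads for Gbp2 (46.1 CPM), and adult-labelled recipient 3 stands apart for H2-K1 (261 CPM), H2-D1, B2m and H2-Q6.

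Transcripts of T cells were low in both ages. The summed CD3 chains, relative to plain library totals as are all sums and the floor of 3 counts, were 1.25 ± 0.45 CPM (SD, n = 4) in neonatal and 3.83 ± 0.47 CPM (SD, n = 4) in adult-labelled recipients, with no overlap (exact two-sided permutation p = 0.0286, the smallest that 4 against 4 allows, and 0.033 adjusted over 15 sums and shares). Cd247, the zeta chain, which natural killer cells also make, held most of the sum in adult-labelled recipients only, at 0.472, 0.394, 0.538 and 0.514 CPM against 2.69, 2.74, 2.62 and 2.44 CPM (log2 fold change -2.45 ± 0.23). Without Cd247, a choice made after these values were seen, the sum was 0.73 against 1.39 CPM with an exact p of 0.0571. Trac, the constant part of the alpha chain, stood at 0.708, 0.666, 0.538 and 0.642 CPM against 0.774, 0.418, 0.437 and 0.977 CPM and did not pass the test.

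Of 13 tested T cell genes 2 were higher in neonatal recipients, Il7r and Cd28, and 4 in adult-labelled ones, Cd247, Cd2, Cd4 and Skap1. Without neonatal recipient 1 or 2 the latter count was 2. Of all genes 26.8% were higher in neonatal and 25.1% in adult-labelled recipients. The call of Cd2 was lost without any 1 of 4 libraries, that of Cd4 without any 1 of 3 and that of Skap1 without neonatal recipient 1 or adult-labelled recipient 3. Il7r, the receptor for interleukin-7, which fetal monocytes also carry, stood at 7.14, 4.42, 5.55 and 4.45 CPM against 0.865, 0.0929, 0.826 and 0.639 CPM. Cd28, the costimulatory receptor, stood at 3.31, 2.85, 1.95 and 2.23 CPM against 1.37, 1.21, 1.84 and 1.014 CPM. Ptprcap, a partner of the leukocyte phosphatase CD45, did not pass the test at 0.502 to 1.08 CPM against 0.714 to 1.17 CPM. No transferred T cell can be told from a host T cell in these counts.

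B cell genes were low in both ages, and 6 of 11 tested genes were higher in adult-labelled recipients. Cd79a, a signalling chain of the B cell receptor, stood at 1.03, 1.09, 0.745 and 0.985 CPM against 1.87, 2, 2.72 and 1.88 CPM, and Ighm, the IgM heavy chain, at 4.13, 3.15, 3.23 and 3.6 CPM against 5.87, 6.41, 5.63 and 4.7 CPM, without overlap. Cd22, an inhibitory receptor of B cells, was the only one higher in neonatal recipients, at 2.03 to 2.8 CPM against 0.697 to 1.09 CPM. The rearrangement enzyme genes Rag1 and Dntt of immature lymphocytes reached 0.546 and 0.865 CPM in adult-labelled recipient 1 and stayed at or under 0.194 CPM in the other 7 libraries.

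Most genes of the mature contractile list, which also holds genes of energy supply such as Ckmt2, were higher in adult-labelled recipients. Of 22 tested genes 19 passed in that direction (25.1% of all genes did), 5 of them by at least 2-fold, with a median of -0.51. Ckmt2, the creatine kinase of heart mitochondria, stood at 132, 165, 165 and 167 CPM against 679.6, 713, 685 and 612 CPM (log2 fold change -2.10 ± 0.09, adjusted p = 2.29e-09). Mb, the oxygen store myoglobin, stood at 2688, 3456, 3117 and 3702 CPM against 9583, 10840, 10350 and 9813 CPM, and Tcap, which anchors titin at the Z disc, at 109.7, 118, 122 and 120.3 CPM against 324, 339, 344 and 309 CPM. Tnni3, the cardiac troponin I, stood at 1540, 1686, 1767 and 1981 CPM against 3558, 4384, 3612 and 3460 CPM. None of the 4 had overlapping groups. Of all 22 genes, Ttn alone passed in the other direction, at 1059 to 1797 CPM against 1044 to 1140 CPM, and its log2 fold change of 0.43 was -0.02 once the length trend was removed. Its transcript is among the longest known.

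Genes of the fetal and stressed heart muscle cell showed no shared direction: 2 of 16 tested genes were higher in neonatal and 1 in adult-labelled recipients. Nppa, the atrial natriuretic peptide gene, stood at 7009, 3164, 4383 and 6066 CPM against 836, 212, 744 and 3412 CPM, and did not pass the test (log2 fold change 1.99 ± 0.86, adjusted p = 0.0994). Adult-labelled recipient 4 overlapped with the neonatal libraries, and without it Nppa passed with a log2 fold change of 3.10 (adjusted p = 0.0103). Myh7, the fetal myosin heavy chain, stood at 2335, 1916, 2626 and 2344 CPM against 2046, 1968, 1929 and 2764 CPM, and Acta1, the skeletal actin re-expressed under load, at 239, 151, 241 and 277 CPM against 207, 143, 299.8 and 554 CPM. Both overlapped, and adult-labelled recipient 4 was the highest library for each. Myl7, the atrial light chain, was at 2.23, 35, 2.14 and 9.28 CPM in adult-labelled recipients, with recipient 2 apart, and at 4.79 to 8.09 CPM in neonatal ones. How much atrial tissue each library held was not tested.

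Measured as shares of a fetal and a mature partner, the shift was uniform. A share compares 2 genes within a library, each divided by its transcript length, and so does not depend on scaling. Tnni1 made up 27.3, 25.3, 26.4 and 25.1% of Tnni1 and Tnni3 in neonatal and 13.1, 11.4, 12 and 14.2% in adult-labelled recipients. Myh7 made up 24.1, 15.4, 17.3 and 16.7% of Myh7 and Myh6 against 11.3, 10.7, 10.8 and 13.3%. For both pairs the groups did not overlap (exact two-sided permutation p = 0.0286, 0.033 adjusted over 15). The Myh7 level itself did not differ by the test, whereas Myh6 was 1.58-fold higher in adult-labelled recipients.

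Ion channel and calcium genes divided. Of 31 tested genes 15 were higher in adult-labelled and 7 in neonatal recipients, and with libraries divided by their totals alone the counts were 12 and 11. Hcn2, a pacemaker channel, stood at 4.57, 6.7, 7.24 and 7.58 CPM against 44.8, 56.2, 35.5 and 44.3 CPM (log2 fold change -2.80 ± 0.17). The potassium channels of the mature action potential were higher in adult-labelled recipients as well, Kcna5 at 10.5 to 18.7 CPM against 28.6 to 33.8 CPM and the subunit Kcnip2 at 56.5 to 83.7 CPM against 139 to 174 CPM. Atp2a2, the calcium pump of the sarcoplasmic reticulum, stood at 2608 to 3912 CPM against 4030 to 5308 CPM, and Hrc, a calcium-binding partner of its store, at 73 to 128 CPM against 281 to 339 CPM.

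Slc8a1, the sodium-calcium exchanger that carries more of the calcium flux in the newborn, went the other way at 848, 892, 836 and 762 CPM against 348, 350.4, 395 and 378 CPM (log2 fold change 1.18 ± 0.08, adjusted p = 4.71e-08). Gja5, a gap junction gene of atrium, conduction system and vessels, was 1.65-fold higher in neonatal recipients. Ryr2, the calcium release channel, did not pass the test at 455 to 746 CPM against 460.1 to 538 CPM.

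Fatty acid oxidation and oxidative phosphorylation, the fuel pathways of the mature heart, were higher in adult-labelled recipients. Of 28 tested genes of fatty acid uptake and oxidation 25 passed in that direction and none in the other, with a median of -0.78. All 30 tested nuclear genes of oxidative phosphorylation passed in that direction, with a median of -0.74, against 25.1% of all genes. Acadvl, which starts the oxidation of long chains, stood at 405, 519, 534 and 549 CPM against 1011, 1063, 1018 and 901 CPM. Fabp3, which carries fatty acids in heart muscle cells, stood at 1667, 1965, 1849 and 2173 CPM against 3934, 4510, 4232 and 3806 CPM, and Ucp3, a mitochondrial carrier, at 7.58, 25.4, 17.3 and 16.1 CPM against 90.2, 97.6, 62.5 and 53 CPM. All 3 were without overlap, and neonatal recipient 1 was the lowest library.

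Within oxidative phosphorylation the largest differences were those of the muscle isoforms of cytochrome oxidase. Cox7a1 stood at 78.5, 85.7, 95.4 and 103 CPM against 285, 340.4, 296 and 273 CPM (log2 fold change -1.72 ± 0.10), Cox8b at 129, 123, 137 and 158 CPM against 457, 502, 399.9 and 436 CPM and Cox6a2 at 314 to 476 CPM against 1158 to 1282 CPM. Genes of other complexes differed less, Sdha by 1.36-fold and Atp5b by 1.55-fold. The transcripts of the mitochondrial genome were 12.7 ± 1.23% of counts (SD, n = 4) in neonatal and 15.5 ± 2.25% (SD, n = 4) in adult-labelled recipients, with overlap (exact two-sided permutation p = 0.114). With scaled totals the difference was -4.82 percentage points (exact permutation p = 0.0286) in place of -2.75, and without adult-labelled recipient 4 the difference was -3.70 percentage points with no overlap. By gene, 8 of 13 passed, all higher in adult-labelled recipients, with COX1 at 30670 to 39150 CPM against 40990 to 63230 CPM.

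The transcription factors that drive this programme differed little. Of 12 tested genes of the PPAR, ERR and PGC-1 group 1 was higher in each direction. Esrra, the estrogen-related receptor alpha, stood at 114, 128, 128 and 144 CPM against 191, 215, 182 and 186 CPM, while Esrrg, its gamma partner, stood at 27.8, 35.2, 28.2 and 26.2 CPM against 20.4, 20.4, 19.4 and 16.2 CPM and was higher in neonatal recipients. Ppargc1a did not pass the test at 65.9 to 94.7 CPM against 46.3 to 70.8 CPM (adjusted p = 0.0688), and Ppara did not at 26.1 to 39.5 CPM against 33.9 to 46.6 CPM (adjusted p = 0.131). Ppargc1a passed without neonatal recipient 1 or adult-labelled recipient 2, and Ppara passed, higher in adult-labelled recipients, without neonatal recipient 2.

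Glycolysis showed an exchange of isoforms and no shared direction, with 8 of 21 tested genes higher in neonatal and 7 in adult-labelled recipients. Slc2a1, the glucose transporter of fetal and dividing cells, stood at 56, 44, 54.7 and 56.6 CPM against 15.4, 12.8, 16.9 and 23.6 CPM (log2 fold change 1.61 ± 0.16), and Slc2a4, the insulin-responsive transporter, at 81.8, 98.6, 108 and 93.9 CPM against 166, 170.1, 148 and 148 CPM. Pfkp and the regulator Pfkfb3 were 1.95-fold and 2-fold higher in neonatal recipients, and the muscle forms Pfkm, Pgam2 and Eno3 were 1.77-fold, 1.73-fold and 1.89-fold higher in adult-labelled ones. Gapdh did not pass the test at 1100 to 1264 CPM against 1120 to 1403 CPM.

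The share of the fetal or general partner was higher in neonatal recipients in all 10 pairs measured, each without overlap (exact two-sided permutation p = 0.0286, 0.033 adjusted over 15). Slc2a1 held 35.2 ± 4.31% of its pair in neonatal and 9.72 ± 2.88% in adult-labelled recipients (SD, n = 4 each). For Eno1 the share was 25.3 ± 3.40% against 11.2 ± 0.99%, for Cox8a 59.6 ± 0.91% against 38.3 ± 4.16% and for Cpt1a, the liver-type carnitine transferase, 23.5 ± 3.21% against 13.9 ± 1.21%. A higher share does not mean a higher level of that partner. Cox8a itself was higher in adult-labelled recipients (log2 fold change -0.48, adjusted p = 0.00172). Tnni1 and Ckb did not pass the test (adjusted p = 0.0876 and 0.785). Adult-labelled recipient 4 was nearest to the neonatal libraries in 9 of the 10 pairs.

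**Figure D4:**
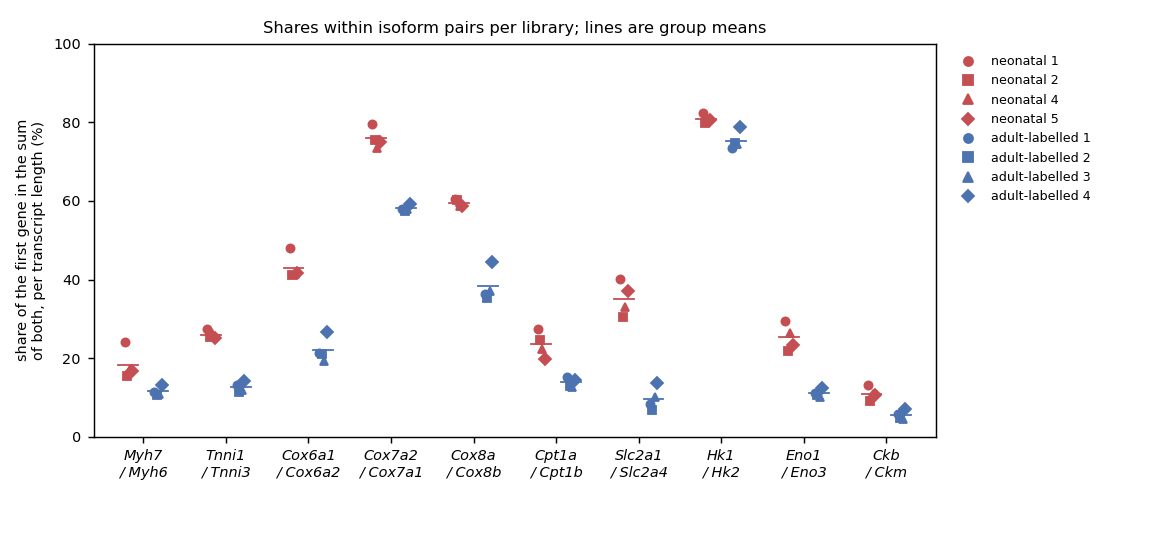
Share (percent, linear axis from 0 to 100) of the first gene in the sum of both genes of a pair, each per transcript length, in each of the 8 recipient libraries, with lines at group means. In every pair the 4 neonatal points lie above the 4 adult-labelled ones, by most for Slc2a1 (35.2 against 9.72%) and by least for Ckb (10.9 against 5.56%) and Hk1 (80.9 against 75.3%).

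Synthetic pathways of growing tissue were higher in neonatal recipients. Of 14 tested genes of serine, one-carbon and proline synthesis 9 passed in that direction and 1 in the other, with Psat1, an enzyme of serine synthesis, at 33.9 to 49.5 CPM against 18.9 to 26.1 CPM and Mthfd1l, a mitochondrial folate enzyme, at 14.3 to 19.1 CPM against 5.58 to 7.89 CPM. Of 17 tested genes of cholesterol synthesis 9 were higher in neonatal and 2 in adult-labelled recipients, with Sqle, the squalene oxidising step, at 15.2 to 16.7 CPM against 8.15 to 9.18 CPM. Fdft1, which makes squalene, was higher in adult-labelled recipients at 19.5 to 24.3 CPM against 32.6 to 37.1 CPM. Of 13 tested hypoxia genes 9 were higher in neonatal recipients: Hif1a, the oxygen-regulated transcription factor, stood at 219.9, 202, 178 and 185 CPM against 98.1, 89.7, 105 and 118 CPM, and Hmox1, the haem-degrading enzyme that macrophages also make, at 112, 76.7, 85.3 and 64.2 CPM against 20.8, 15, 22.6 and 21.3 CPM. Epas1, the related factor of vessels, went the other way at 96.4 to 130 CPM against 168 to 186 CPM.

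Receptors of hormones known to mature the heart were among the differences. Thrb, a thyroid hormone receptor, stood at 0.885, 1, 1.16 and 0.985 CPM against 4.64, 6.74, 2.91 and 3.31 CPM, and Thra at 187 to 229 CPM against 272 to 321 CPM, both higher in adult-labelled recipients. Klf9, a target of thyroid hormone and glucocorticoids, stood at 20 to 29.5 CPM against 35.7 to 50.5 CPM, while Fkbp5, a glucocorticoid target, was higher in neonatal recipients at 28.5 to 37.3 CPM against 15.4 to 20.7 CPM. Of 16 tested clock genes 7 were higher in adult-labelled and 2 in neonatal recipients. Dbp, an output gene of the clock, stood at 19.4 to 26.9 CPM against 37.1 to 45.8 CPM and Nr1d1, a repressor of it, at 20.8 to 25.3 CPM against 34.1 to 40.8 CPM. The hour of collection is not given in the labels, and its part in these values was not tested.

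Genes of cell division were present in both ages and higher in neonatal recipients. Of 25 tested genes of mitosis and cytokinesis 21 passed in that direction and none in the other, with a median of 0.53, against 26.8% of all genes. Ect2, which positions the cleavage furrow, stood at 22.4, 21, 19 and 19.4 CPM against 9.56, 8.73, 10.3 and 8.34 CPM (log2 fold change 1.15 ± 0.10, adjusted p = 4.92e-07). Mki67 stood at 139.5, 145, 143 and 135 CPM against 92.8, 79.3, 84.1 and 99.8 CPM, and Kif11, a spindle motor, at 51.5, 50.4, 52.4 and 51.2 CPM against 28.7, 29.9, 30.1 and 33 CPM. The groups did not overlap for these 3, and only Ect2 and Cenpe, a motor of the kinetochore, reached 2-fold. Cdc20 and Ccnb2 did not pass the test. Which cell types were dividing cannot be told from bulk RNA.

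Genes of DNA replication did not share this direction. Of 27 tested genes 7 were higher in neonatal recipients, a share near that of all genes (26.8%), and 3 in adult-labelled ones. With libraries divided by their totals alone the counts were 19 and 0. Tyms, which makes the thymidine precursor, stood at 28.5 to 34.9 CPM against 17.9 to 21.4 CPM and Mcm4, a subunit of the replicative helicase, at 39.3 to 48.6 CPM against 28.6 to 32.4 CPM, both higher in neonatal recipients. Pcna, the sliding clamp, did not pass the test at 72.5 to 89.8 CPM against 66.4 to 83.3 CPM. Among the controllers of entry into the cycle, Cdkn1a, the inhibitor p21, stood at 53.9, 43.4, 52.4 and 51.1 CPM against 81.9, 80.2, 79.4 and 81 CPM, and Ccnd2, a cyclin of the G1 phase, at 206, 220.1, 204 and 180.5 CPM against 306, 278, 314 and 274 CPM, both higher in adult-labelled recipients without overlap.

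The promoters of the division genes are shown because these genes were higher together. Many promoters of genes expressed in mitosis carry the element TTTGAA (the letters of the CHR, a site of the DREAM complex) beside CCAAT boxes. In the window from 250 bases before to 50 bases after the start of RefSeq genes of GRCm38.p6, 22 of the 25 division genes had an entry. TTTGAA, read on both strands, was found in 17 of the 22 (77.3%), in 20.2% of all 27025 promoters and in 14.8% of the 12019 promoters of tested genes. CCAAT was found in 18 of the 22 (81.8%) and in 42.6% of those of tested genes. Both motifs can share at most 1 base, at their ends. The 150 bases before the start of 4 of the genes follow in the direction of transcription, with both motifs in capitals on either strand (TTCAAA and ATTGG on the opposite one).
Kif11 (chr19:37376232-37376381, plus strand): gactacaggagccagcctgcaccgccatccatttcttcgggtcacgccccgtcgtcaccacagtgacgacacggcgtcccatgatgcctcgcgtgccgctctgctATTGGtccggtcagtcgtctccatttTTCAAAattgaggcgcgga
Cdk1 (chr10:69352913-69353062, minus strand): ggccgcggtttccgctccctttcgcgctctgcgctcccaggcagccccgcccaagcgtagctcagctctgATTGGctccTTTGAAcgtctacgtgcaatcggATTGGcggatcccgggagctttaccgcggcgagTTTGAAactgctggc
Top2a (chr11:99024190-99024339, minus strand): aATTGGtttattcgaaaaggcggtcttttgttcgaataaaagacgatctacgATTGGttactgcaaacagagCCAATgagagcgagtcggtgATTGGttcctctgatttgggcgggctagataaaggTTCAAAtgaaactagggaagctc
Mki67 (chr7:135716380-135716529, minus strand): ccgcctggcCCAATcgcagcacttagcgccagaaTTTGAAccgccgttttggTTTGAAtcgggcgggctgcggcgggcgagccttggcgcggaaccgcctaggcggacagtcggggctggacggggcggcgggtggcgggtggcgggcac

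In Kif11 1 TTTGAA lies 14 to 19 bases before the start, and in Top2a, the topoisomerase of dividing cells, 1 lies 18 to 23 bases before it. Cdk1, the kinase that starts mitosis, has 2 of them and 2 CCAAT letters, and Top2a has 4 CCAAT letters. The levels of these genes were 50.4 to 52.4 CPM against 28.7 to 33 CPM for Kif11, 68.3 to 86.9 CPM against 52.2 to 61.7 CPM for Cdk1 and 118 to 135 CPM against 70.5 to 94.8 CPM for Top2a. A match is a run of letters and was not tested as a binding site. For the E2F letters TTTNGCGC, 9 of 22 promoters of the replication list held a match (40.9%), against 2.61% of those of tested genes, although most genes of that list did not pass the test. TCAAGGTCA, the letters of the ERR site, was in 0 of 22 promoters of the fatty acid oxidation list, in 0 of 21 of the nuclear oxidative phosphorylation list and in 0.341% of those of tested genes.

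Imprinted growth genes, which act in the fetus and are switched down together after birth, were higher in neonatal recipients. Of 16 tested genes 13 passed in that direction and none in the other, with a median of 0.92. Plagl1, a transcription factor of this network, stood at 179, 199.7, 179.5 and 146 CPM against 61.2, 52.4, 60.9 and 56.5 CPM (log2 fold change 1.61 ± 0.09, adjusted p = 1.64e-08). Peg10, derived from a retroelement, stood at 19.5, 16.8, 17.8 and 15.6 CPM against 3.37, 2.46, 3.45 and 3.68 CPM. H19 stood at 1877, 1735, 1830 and 1703 CPM against 918, 851, 845 and 782 CPM and Igf2 at 1140, 1167, 1226 and 1120 CPM against 839.8, 904, 818 and 710.1 CPM. The groups did not overlap for these 4, and the spread within each was small beside the difference. Cdkn1c, an imprinted brake on the cell cycle, stood at 32.3 to 35.1 CPM against 29.8 to 37.2 CPM and did not pass the test.

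RNA-binding and chromatin genes of the fetal state followed. Of 10 tested genes 6 were higher in neonatal recipients and none in adult-labelled ones. Igf2bp3, which binds the Igf2 transcript, stood at 33.5, 31, 28.6 and 28.5 CPM against 9.84, 7.81, 8.4 and 11.4 CPM, and Hmga2, a chromatin protein of growing tissue, at 7.73, 3.88, 5.01 and 4.2 CPM against 0.637, 0.79, 0.68 and 0.864 CPM (log2 fold change 2.80 ± 0.26). Hmga1 did not pass the test at 65.1 to 73.2 CPM against 67.2 to 73.1 CPM. The growth factor receptor gene Igf1r was 1.95-fold higher in neonatal recipients at 64.5 to 78.2 CPM against 35.1 to 41.1 CPM, and Igf1 was 1.52-fold higher.

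The Hippo pathway restrains growth through kinases that hold back the coactivators Yap1 and Wwtr1, and neuregulin signals through the Erbb receptors. Of 16 tested genes 10 were higher in neonatal recipients and none in adult-labelled ones. They were kinases and their partners, Stk3, Stk4, Lats1, Lats2, Sav1, Mob1a and Mob1b, as well as Yap1, the DNA-binding partner Tead1 and Nrg1. Both restraining and driving members were among them. Mob1b stood at 18.5 to 33.7 CPM against 6.8 to 10 CPM and Tead1 at 158 to 207 CPM against 106 to 127 CPM. Yap1 stood at 86.4 to 96.9 CPM against 76.5 to 82.5 CPM, and its call was lost with the length trend removed. Erbb2 did not pass the test at 37.1 to 45.6 CPM against 34.6 to 40.1 CPM, and Erbb4 did not at 11.7 to 17.2 CPM against 6.16 to 12.4 CPM, although it passed without any 1 of 3 libraries. The call of Nrg1 was lost without any 1 of 5 libraries and that of Sav1 without adult-labelled recipient 4. With the length trend removed 7 were higher in neonatal and 2 in adult-labelled recipients.

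**Figure D5:**
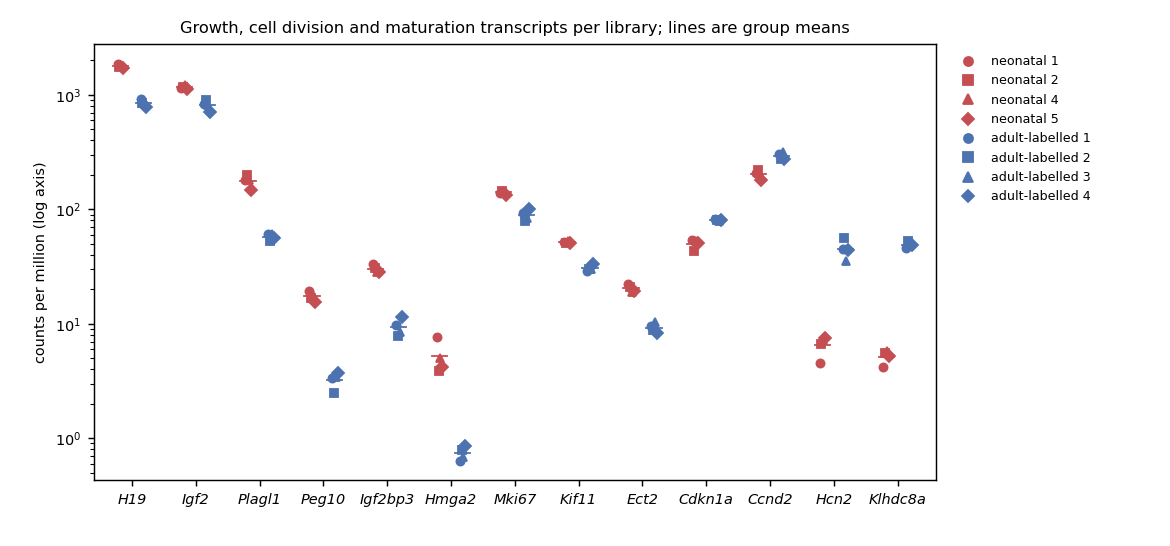
CPM (log axis) of 13 genes of imprinted growth, fetal regulation, cell division and maturation in each of the 8 recipient libraries, with lines at group means. The neonatal points lie above all adult-labelled points from H19 to Ect2, by most for Hmga2 (3.88 to 7.73 against 0.637 to 0.864 CPM), and below them for Cdkn1a, Ccnd2, Hcn2 and Klhdc8a.

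Cardiac transcription factors went both ways, with 5 of 16 tested genes higher in neonatal and 7 in adult-labelled recipients, against 26.8% and 25.1% of all genes. Without adult-labelled recipient 4 the counts were 2 and 5. Tbx20, a T-box factor needed for heart growth, stood at 256, 285, 226 and 243 CPM against 115, 102, 119 and 108 CPM (log2 fold change 1.18 ± 0.08), and Hand1, which acts in the early left ventricle, at 1.97 to 3.36 CPM against 0.232 to 0.592 CPM. Nkx2-5 stood at 57.2 to 83.8 CPM against 105 to 128 CPM and Hopx, a regulator linked to it, at 273 to 283 CPM against 384 to 477 CPM, both higher in adult-labelled recipients. Among other signals, Bmp7 stood at 38.2 to 48.2 CPM against 16.4 to 23.8 CPM and Hey2, a Notch target of the compact ventricular wall, at 24.3 to 36.8 CPM against 12.1 to 14.5 CPM, while Fgf16, a growth factor of the postnatal heart, stood at 3.66 to 6.54 CPM against 9.84 to 15.8 CPM and was higher in adult-labelled recipients.

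Matrix genes went both ways. Loxl2, an oxidase that links collagen, stood at 319.5, 256, 258 and 263 CPM against 106, 98.4, 101 and 105 CPM (log2 fold change 1.42 ± 0.08, adjusted p = 1.67e-08). Plod2, which prepares collagen for such links, was 1.65-fold higher in neonatal recipients. Of 13 tested genes of this list 6 were higher there and 1 in adult-labelled recipients. Of 19 tested collagens 8 were higher in neonatal and 2 in adult-labelled recipients, and with the length trend removed 4 and 3. Col1a2 stood at 1279 to 1459 CPM against 669.7 to 1190 CPM and Col1a1 at 1378 to 1714 CPM against 789 to 1597 CPM, of which Col1a1 did not pass the test (adjusted p = 0.124) but passed without adult-labelled recipient 4 (adjusted p = 0.00575). The summed collagens I and III were 5908 ± 434 against 4067 ± 1032 CPM (SD, n = 4 each, exact two-sided permutation p = 0.0286), and with scaled totals the p was 0.0857.

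Matricellular proteins, proteoglycans and proteases had 11 of 32 tested genes higher in neonatal and 8 in adult-labelled recipients, shares near those of all genes. Fn1, the fibronectin gene, stood at 1093, 989.5, 1051 and 817 CPM against 510, 306, 404 and 684 CPM. Vcan, a large proteoglycan of growing tissue, stood at 102, 99, 109.5 and 79.4 CPM against 50.2, 42.8, 35.8 and 44.8 CPM, and Timp1, an inhibitor of matrix proteases, at 66, 50, 73 and 56.9 CPM against 22.8, 18, 20.1 and 30.1 CPM. All 3 were higher in neonatal recipients, with no overlap. Tnc, a matrix protein of wounds, stood at 141, 109, 127 and 111 CPM against 45.5, 18.1, 20.6 and 69 CPM (adjusted p = 0.0238), a call that was lost without any 1 of 3 libraries. Eln, the elastin gene, stood at 484, 337, 359.8 and 371 CPM against 1252, 659, 665 and 3168 CPM and was higher in adult-labelled recipients (log2 fold change -1.89 ± 0.58). Recipient 4 of that group was the highest, and without it the value was -1.16. The call was lost without any 1 of 5 other libraries.

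Markers of resident fibroblasts were mostly higher in adult-labelled recipients, in 11 of 16 tested genes against 3 in neonatal ones. Pi16, a marker of fibroblast progenitors of the outer vessel wall, stood at 8.14, 8.39, 6.54 and 7.84 CPM against 53.6, 63.5, 65.1 and 46.3 CPM (log2 fold change -2.88 ± 0.12, adjusted p = 1.74e-09). Dcn, a collagen-binding proteoglycan, stood at 218, 262, 236 and 237 CPM against 485, 483, 451 and 392 CPM, and Scara5, a ferritin receptor, at 2.65 to 3.31 CPM against 4.81 to 13.9 CPM. Pdgfra, the receptor that defines the lineage, was 1.32-fold higher in neonatal recipients at 41.5 to 57.5 CPM against 30 to 41.9 CPM. Its call was lost with the length trend removed (adjusted p = 0.155 by edgeR). Tcf21 did not pass the test at 35.1 to 42.8 CPM against 26.9 to 37.5 CPM (adjusted p = 0.0788, and 0.0329 without adult-labelled recipient 4). Outside this fibroblast list, Vtn, the adhesion protein vitronectin, and Clec3b, the plasminogen-binding tetranectin, were among the strongest differences toward adult-labelled recipients. Vtn stood at 1.53, 2.67, 1.57 and 2.35 CPM against 25.8, 30.6, 26.7 and 17.9 CPM.

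The same direction was the more frequent one among endothelial genes. Of 23 tested endothelial genes 13 were higher in adult-labelled and 3 in neonatal recipients. Gpihbp1, which holds lipoprotein lipase on capillaries, stood at 54.6, 56.8, 60.5 and 74.9 CPM against 122, 156, 139 and 140.1 CPM, and Sox18, an endothelial transcription factor, at 41, 50.5, 55.1 and 53.1 CPM against 95.8, 103, 105 and 109.7 CPM. Pecam1 and Cdh5, markers of all endothelium, were 1.37-fold and 1.43-fold higher in adult-labelled recipients. Plvap, a protein of fenestrated and immature vessels, went the other way at 70.2, 48, 66 and 48.9 CPM against 26.4, 21.5, 21.3 and 29.8 CPM, and so did Vwf at 51.4 to 79.3 CPM against 32.3 to 40.5 CPM. Rgs5 and Kcnj8, which mark pericytes, were higher in adult-labelled recipients at 216 to 301 CPM against 524 to 735 CPM and 28.5 to 37.5 CPM against 69.1 to 77.5 CPM. Their list of pericyte and smooth muscle genes went both ways, with 4 of 12 tested genes higher in adult-labelled and 3 in neonatal recipients. Its median was -0.06, and 2 genes were at least 2-fold higher in neonatal recipients, with log2 fold changes of up to 2.41.

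Of 15 tested epicardial and mesothelial genes 4 were higher in neonatal and none in adult-labelled recipients, with a median of 0.49 and 14 values above 0. The share higher in neonatal recipients was near that of all genes (26.8%). Wt1, which defines the layer, stood at 12.8 to 16.2 CPM against 13.2 to 14.6 CPM, and Msln, of the mesothelium, at 6.36 to 15.9 CPM against 8.41 to 13.1 CPM, and neither passed the test. Aldh1a2, which makes retinoic acid, and Tbx18 were higher in neonatal recipients at 74.3 to 88.1 CPM against 48.6 to 59.3 CPM and 19.8 to 25.8 CPM against 9.94 to 14.3 CPM. The summed globins, transcripts of red cells, were 2226 ± 613 CPM in neonatal and 5423 ± 842 CPM in adult-labelled recipients (SD, n = 4 each, exact two-sided permutation p = 0.0286). How much blood each sample held was not tested. Dbh, of sympathetic nerves, was higher in adult-labelled recipients at 3.27 to 4.37 CPM against 9.08 to 13.1 CPM, and Tubb3, a tubulin of neurons and growing cells, in neonatal ones at 9.3 to 17 CPM against 1.16 to 2.82 CPM.

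Some of the largest differences toward adult-labelled recipients fell outside these groups. Klhdc8a, a kelch protein, stood at 4.22, 5.51, 5.75 and 5.18 CPM against 45.8, 52.7, 48.7 and 48.4 CPM (log2 fold change -3.25 ± 0.10, adjusted p = 7.01e-11). C1qtnf3, a secreted relative of C1q, stood at 0.531, 0.485, 0.166 and 0.343 CPM against 16, 3.35, 7.33 and 12.9 CPM, and Mapt, the microtubule protein tau, at 3.45, 4, 3.89 and 4.62 CPM against 33.4, 33.6, 46.1 and 26.2 CPM. Tuba8, an alpha tubulin of muscle, stood at 6.99 to 14.6 CPM against 64.5 to 83.8 CPM, and Igfals, which holds insulin-like growth factors in the circulation, at 0.413 to 1.28 CPM against 5.96 to 7.7 CPM. All 5 were at least 6.73-fold higher and without overlap between the groups.

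Markers of other tissues were low. Of lung, thymus, fat and liver markers most were under the floor of 3 counts in most libraries, with Sftpc at or under 0.0828 CPM and Foxn1 at 0. Rag1 and Dntt of immature lymphocytes, given above, were highest in adult-labelled recipient 1, which also had the highest CD3 sum (4.37 CPM). How much thymus this library held was not tested. Of 6 liver markers 2 were abundant enough to be tested. Both were at least 2-fold higher in adult-labelled recipients, with log2 fold changes of -1.69 and -1.04. Of 5 tested skeletal muscle genes 3 were higher in neonatal recipients and 1 in adult-labelled ones (log2 fold change -1.31). Among the former, Myh1 stood at 0.497 to 1.54 CPM against 0.0376 to 0.139 CPM and Tnnt3 at 5.7 to 13.2 CPM against 0.697 to 1.58 CPM. Myog and Myod1, which define that lineage, stayed at or under 0.139 CPM. Fabp4, a lipid carrier of fat and capillaries, was higher in adult-labelled recipients at 441 to 510 CPM against 699 to 946 CPM, while Adipoq, which defines fat cells, stayed at or under 0.166 CPM.

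Hearts without T cells were read from the same fit over all 15 libraries, to see whether the difference between the ages was particular to recipients. The 2 comparisons share no library. Of 16437 genes, 5085 (30.9%) passed between neonatal and adult-labelled controls, and edgeR's direct test of the difference called none (0%). The smallest adjusted p was 0.182, 2511 genes had an unadjusted p below 0.05, and DESeq2 called 117. With 1 control fewer in the adult-labelled group, counts of calls in both comparisons do not measure the size of the difference. A neonatal control that stood apart from the other libraries was kept in this fit. It enters the control values below and the estimate of the spread.

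List medians of recipients and controls are given side by side. For the macrophage list they were 1.76 in recipients and 1.11 in controls, and for mitosis 0.54 and 0.48. For fatty acid oxidation they were -0.77 and -0.45, and for the contractile list -0.49 and -0.24. For oxidative phosphorylation the medians were -0.73 and -0.36. An unadjusted p below 0.05 in edgeR's test of the difference was found for 25 of its 30 genes, against 2511 of all 16437 genes. The count was 12 of 22 for the contractile list, 8 of 21 for glycolysis and 0 of 25 for mitosis. None of these genes passed after adjustment. For the Hippo and neuregulin list the medians were 0.37 and 0.09, and for imprinted growth 0.93 and 0.74. For type I interferon they were 1.15 and 1.12. Other lists were farther from 0 in controls or differed in sign. The medians were 0.51 and 1.18 for the epicardial list, 1.0 and 1.41 for skeletal muscle, -0.45 and -0.63 for the mitochondrial genome and 0.13 and 0.21 for DNA replication. For glycolysis they were -0.05 and 0.24, and for MHC class I -0.33 and 0.02.

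Single genes were read the same way. The log2 fold change of Spp1 was 5.45 in recipients and 4.49 in controls, with a difference of 0.96 ± 1.38 (SE). For Pi16 it was -2.87 and -2.82, with a difference of -0.05 ± 0.18, and for Hcn2 -2.79 and -2.53, with -0.26 ± 0.23. For Cox8b it was -1.71 and -1.13, with -0.58 ± 0.21. None of these differences passed the test after adjustment over all genes, and the SE of Spp1 is too large to set a narrow bound on its difference.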

How the data were processed

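RNA of 15 left ventricles was measured, of which the 8 T cell recipients entered the comparison (4 against 4, from the labels) and the 7 controls only the test of whether the ages differed otherwise without T cells. Per the labels' protocols, tissue was stored in RNAlater, RNA was isolated on columns, and libraries came from a stranded oligo-dT kit. The submitters' processing notes name, with no order, bcl2fastq 2.20.0.422, cutadapt 2.5, STAR 2.7.2b, featureCounts 1.6.4, DESeq2 1.24.0 and the genome build GRCm38.p6. How strand was used in counting is not given in the sources used here, so overlapping and antisense genes, and near-identical copies, are uncertain. The authors deposited expected counts (estimated, unscaled, 61.1% of non-zero values whole within 1e-9) for 39331 genes, which were rounded here.

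Genes were kept by filterByExpr of edgeR (minimum count 10, minimum total 15), libraries were scaled by TMM (factors 1.05 to 1.11 in neonatal and 0.897 to 0.959 in adult-labelled recipients), and edgeR 4.0.16 in R 4.3.3 fitted a robust quasi-likelihood model with Benjamini-Hochberg adjustment over all genes tested. DESeq2 1.42.0 and limma 3.58.1 (voom) were alternatives, with other scalings and filters, all 15 libraries, the replicate block, each library left out, and the trend over transcript length (GENCODE M21, 27399 genes) removed. The 51 gene lists are described by counts and medians with no set test. Sums and shares (15 in all) were compared by exact two-sided permutation tests. A count of 0 allows up to 3 counts (0.09405 to 0.1372 CPM), which covers counting error only. Promoters came from RefSeq on GRCm38.p6.

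Genes were named by a rule: the 15 largest differences each way among genes that passed, with a group mean of 5 CPM or more and libraries that do not overlap (predicted genes, clones, pseudogenes, ribosomal proteins and receptor segments left out), the first 5 members of each list and up to 4 others with the smallest p, and the 10 isoform pairs. Not every gene so named is printed, and Scn4b, Cfd, Rag1, Dntt and the markers of other tissues outside that rule were chosen after their values were seen. The members and lists were chosen with earlier results of these data known. The model was tested on simulated data for 15309 genes of this comparison. It called 75% of 100 genes changed 1.5-fold, 94% of 100 changed 2-fold and 0.152% of 15109 unchanged ones. In the comparison itself 52% of genes passed, and the model was not tested at such a share of changed genes.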

Additional observations from a re-analysis of the deposited data

Results flagged for a closer look

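In each group of 4 libraries, values were compared with the rest of their group, and a library counted as far apart when its gap to the nearest other divided by the group's range exceeded Dixon's critical value for 4 libraries. Chance gives about 1 in 20 groups, and 32 of 474 groups had such a value. Neonatal recipient 1 held 9 of them, recipient 2 1 and recipient 4 4, and adult-labelled recipients 1 to 4 held 1, 3, 7 and 7.

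Adult-labelled recipient 3 stood apart for antigen presentation, with B2m at 426.5 CPM, H2-D1 at 292.5 CPM, H2-K1 at 261 CPM and H2-Q6 at 28.17 CPM. In the same library Cd2 was at 1.263 CPM and Cd79a at 2.719 CPM, both high for the group, and Nlrp3 at 0.5342 CPM.

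Neonatal recipient 1 was the lowest of its group for Ckmt2 (132.2 CPM) and Sdha (719.1 CPM), and had the highest share of Cox6a1 in its pair (48.05%). Its other values were Dbp at 19.42 CPM, Fdft1 at 19.54 CPM, Loxl2 at 319.5 CPM, Mpeg1 at 211.9 CPM, Plod2 at 50.11 CPM and Ly6g at 0.02951 CPM. Neonatal recipient 4 was high for Slfn4 (19.37 CPM) and Tnf (2.856 CPM), with Hk1 at 321 CPM and H2-Q6 at 2.939 CPM. Neonatal recipient 2 had Slc2a1 at 43.99 CPM.

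Adult-labelled recipient 4 stood apart for Eno1 (284.8 CPM), Myh7 (2764 CPM), Plod2 (32.31 CPM) and Sdha (981.9 CPM). The same held for Cdk1 (61.66 CPM), Mob1b (6.8 CPM) and Il6 (0.03757 CPM, 1 count). Adult-labelled recipient 2 had C1qb at 35.68 CPM, Tnni3 at 4384 CPM and Ifng at 0.1394 CPM, and recipient 1 had Yap1 at 82.51 CPM.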

How the results depend on the processing

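Across the alternatives the count of genes that passed stayed within 1.5 times of 8042, and it ran from 7248 to 7786 when 1 recipient was left out. Of 3669 values of the 217 genes in the text, 3505 kept their direction and side of the threshold, 65 lost the call, 47 gained it and 52 changed sign. With no scaling 6581 genes were higher in neonatal and 2152 in adult-labelled recipients, and a filter of 5 CPM gave 860 genes with 2-fold differences in place of 1571, with 11854 genes tested in place of 15477. DESeq2 called 117 genes for the difference between recipients and controls.

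The numbers 1, 2 and 4 occur in both recipient groups, and the deviations of same-numbered libraries correlated at 0.116, 0.159 and -0.0948, so the numbers were not taken to pair the libraries. With the replicate block 7239 genes passed (3790 and 3449 by direction), 1652 of them by 2-fold, and 475 of 785 tested list members in place of 499. Neonatal recipient 5 and adult-labelled recipient 3 share their numbers with no library of the other group, so the block takes them out of the difference. Leaving out adult-labelled recipient 3 alone also changed the signs of B2m, H2-K1 and H2-D1. Signs changed under the block for B2m (0.5018, adjusted p = 0.00193 by edgeR), H2-K1 (0.2913, adjusted p = 0.0182 by edgeR), H2-D1 (0.1853), Cdkn1c (-0.05763) and Msln (-0.1537). Calls were lost for Spp1 (6.213, adjusted p = 0.0631 by edgeR), Gpnmb (4.63, 0.0733), Clec3b (-3.182, 0.0969), Ucp3 (-2.339, 0.0805), Tnc (1.664, 0.0867), Eln (-1.805, 0.143), Yap1, Nrg1, Hk1, Cd2 and Skap1. Other alternatives lost further calls, among them Slfn4 and Il1rn under limma voom, Pdgfra and Cx3cr1 with the length trend removed and Col1a2 with all 15 libraries.

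Sums moved with the library size used. Relative to scaled totals, the difference was -4.817 percentage points for mitochondrial transcripts (p = 0.0286 by the exact permutation test), -1.56 CPM for MHC class II and 1153 CPM for collagens I and III (p = 0.0857 by the exact permutation test). With 1 recipient left out they ran from -3.697 to -2.023 percentage points, from -1.651 to 9.233 CPM and from 1535 to 2253 CPM. The differences in share ran from 4.932 to 7.846 percentage points for Myh7 and from 4.963 to 6.712 for Hk1, where the exact permutation p of 4 against 3 libraries was 0.0286 or 0.0571.

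The other changes of sign were among genes that had not passed, apart from Ttn, and the cause was not tested. With no scaling B2m had 0.1061, Ckb 0.1527, Gapdh 0.1388, Tgfb1 0.1424, Trac 0.1524 and Wwtr1 0.1477. Hmga1 had -0.0008254 with RLE scaling and -0.0008063 with DESeq2, which gave Cdkn1c -1.208e-06. Under limma voom B2m had 0.1236, Msln -0.03783, Myl7 0.03236 and Trac 0.02866. With the length trend removed the values were 0.03049 for B2m, -0.02374 for Erbb2, -0.1334 for Myh7, -0.2268 for Ryr2 (adjusted p = 0.041 by edgeR), 0.107 for Trac, -0.02002 for Ttn and -0.03761 for Wt1. With 1 recipient left out the ranges were -0.6492 to 0.05091 for Acta1, -0.3102 to 0.5573 for B2m, -0.05558 to 0.1513 for Cdc20, -0.04211 to 0.06954 for Cdkn1c, -0.1268 to 0.08937 for Ckb, -0.1982 to 0.934 for Gbp2, -0.03544 to 0.4273 for H2-Ab1, -0.525 to 0.1758 for H2-D1, -0.936 to 0.3286 for H2-K1, -0.02006 to 0.04544 for Hmga1, -0.1263 to 0.268 for Msln, -1.21 to 0.5355 for Myl7, -0.2104 to 0.2224 for Trac and -0.05473 to 0.06059 for Wt1. Depth limits genes near 3 counts per library, such as Ifng, Il6 and Ly6g.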
